A study of Mus musculus with 64 samples.

Results

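The subject is 10 genes of the cytoskeleton and of the cell cortex, taken from the UMI counts by their symbols. They are the cytoplasmic actin genes Actb and Actg1, the beta-thymosin genes Tmsb4x and Tmsb10, the cortical protein gene Marcks, the annexin genes Anxa2 and Anxa5, and the alpha-tubulin genes Tuba1a, Tuba1b and Tuba1c. All 10 were found among the 55487 genes of the table, and 9 passed the filter on low counts. The exception was Actg1, with 47 UMIs in all libraries together.

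The study measured liver RNA over the day by BRB-seq, a bulk method in which 3′ ends of transcripts are barcoded per sample and counted as unique molecular identifiers (UMIs). The sh-Acsf3 livers came from male C57BL/6J mice in which a hairpin RNA delivered by an AAV8 vector was directed against Acsf3 in the liver. The sh-Ctl livers came from male C57BL/6J mice given the control treatment of the same study. Animals of both treatments ate ad libitum and were sampled 4 weeks after the injection. Each treatment has 8 zeitgeber times (ZT, hours on the light schedule), namely ZT0, 3, 6, 9, 12, 15, 18 and 21, with 4 replicates each. This gives 32 sh-Acsf3 libraries and 32 sh-Ctl libraries. The vector's promoter is not given in the sources used here. The replicates are numbered without a word on whether each is 1 animal, so p-values measure the spread between these samples.

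Actin filaments grow by adding actin monomers, and beta-thymosins hold monomers in reserve by binding them. MARCKS ties actin filaments to the inner face of the plasma membrane, and annexins bind membrane phospholipids in the presence of calcium. Alpha-tubulin pairs with beta-tubulin to form the dimers that build microtubules. In the liver these proteins are made by hepatocytes and also by the stellate, endothelial and immune cells between them.

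The libraries held 0.839 to 9.35 M UMIs (median 2.03) in sh-Acsf3 and 1.48 to 6.06 M UMIs (median 3.13) in sh-Ctl. Levels are given as CPM, UMI counts brought to a common library total after TMM scaling, and are not divided by transcript length, since each transcript gives 1 tag at its 3′ end. Acsf3 itself, the target, ran from 0 to 7.31 CPM with a median of 2.49 in sh-Acsf3, against 6.32 to 18.0 CPM with a median of 11.1 in sh-Ctl. Its log2 difference was -2.23 ± 0.13 (SE, edgeR adjusted p = 1.82e-21). The hepatocyte gene Alb averaged 85370 CPM in sh-Acsf3 and 78590 CPM in sh-Ctl, and no defining hepatocyte marker was absent. In 4 sh-Ctl libraries the acute-phase gene Saa1 stood above 1000 CPM, and in 8 libraries, 6 of sh-Acsf3 and 2 of sh-Ctl, pancreas enzyme genes summed to more than 100 CPM. One of these, sh-Acsf3 ZT21 replicate 2, is also the shallowest library.

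The promoters of the 3 alpha-tubulin genes are shown here so that they can be compared by sequence as well as by level, with those of Tmsb4x and Anxa2 as examples of genes that rose. Each is the 250 bases upstream of the transcription start in RefSeq (GRCm38.p6), read 5′ to 3′ on the strand of the gene. Capitals mark, on either strand, CCAAT, the SP1-type box GGGCGG, the TATA box TATAAA and the AP-1 type box TGANTCA. Tuba1a lies at chr15:98953502-98953751 on the minus strand, Tuba1b at chr15:98934391-98934640 on the minus strand and Tuba1c at chr15:99029641-99029890 on the plus strand. Tmsb4x is at chrX:167209219-167209468 on the minus strand and Anxa2 at chr9:69453433-69453682 on the plus strand.
Tuba1a: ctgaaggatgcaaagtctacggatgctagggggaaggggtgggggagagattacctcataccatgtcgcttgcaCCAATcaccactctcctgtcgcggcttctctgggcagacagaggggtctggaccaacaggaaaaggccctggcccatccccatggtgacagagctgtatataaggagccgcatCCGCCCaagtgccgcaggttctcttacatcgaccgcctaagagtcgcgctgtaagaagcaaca
Tuba1b: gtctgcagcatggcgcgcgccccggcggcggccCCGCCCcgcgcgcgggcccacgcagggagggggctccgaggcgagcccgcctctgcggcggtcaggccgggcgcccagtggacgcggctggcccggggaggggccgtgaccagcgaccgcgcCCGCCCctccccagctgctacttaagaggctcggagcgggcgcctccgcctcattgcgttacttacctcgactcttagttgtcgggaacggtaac
Tuba1c: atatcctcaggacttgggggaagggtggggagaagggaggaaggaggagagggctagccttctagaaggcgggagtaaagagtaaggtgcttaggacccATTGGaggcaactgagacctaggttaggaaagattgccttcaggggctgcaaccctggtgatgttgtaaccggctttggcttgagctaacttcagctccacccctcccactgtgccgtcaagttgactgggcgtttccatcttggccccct
Tmsb4x: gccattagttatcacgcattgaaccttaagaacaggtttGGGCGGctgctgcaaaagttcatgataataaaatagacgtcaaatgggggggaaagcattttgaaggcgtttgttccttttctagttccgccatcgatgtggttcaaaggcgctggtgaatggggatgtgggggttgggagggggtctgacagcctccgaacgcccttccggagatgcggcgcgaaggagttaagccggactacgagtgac
Anxa2: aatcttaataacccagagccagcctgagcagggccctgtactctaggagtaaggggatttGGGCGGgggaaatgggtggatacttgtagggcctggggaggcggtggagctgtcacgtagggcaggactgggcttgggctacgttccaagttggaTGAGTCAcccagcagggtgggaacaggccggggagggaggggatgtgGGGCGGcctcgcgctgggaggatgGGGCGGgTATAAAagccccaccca
The Tuba1a window holds a CCAAT box and a GGGCGG box, the Tuba1b window holds 2 GGGCGG boxes and no CCAAT, and the Tuba1c window holds a CCAAT box alone. The Anxa2 window has TATAAA between 17 and 12 bases before the start, with 3 GGGCGG boxes and 1 TGANTCA match. Their G and C content is 56.8% for Tuba1a, 75.6% for Tuba1b, 55.6% for Tuba1c, 52.0% for Tmsb4x and 62.4% for Anxa2. RefSeq windows were found for 8 of the 10 genes, with 10 windows because Tmsb10 has several starts. Actb and Marcks had no window, so their promoters were not examined for any of the boxes. Of 32851 promoter windows of the same length, 32.7% hold GGGCGG, 33.8% CCAAT, 12.4% TATAAA and 6.75% TGANTCA. Among the 8 genes, 6, 3, 1 and 1 hold these in at least 1 window. The CArG box, the motif named for the serum response factor, lies in 1.47% of all windows and, among the 8 genes with a window, in that of Actg1 alone. The box CACGTG (6.02% of windows) was found in the Actg1 window, and TGACGTCA (1.55% of windows) in none of the 8 genes. These matches describe letters in the windows and do not show binding.

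The first comparison asks which of these genes differed between knockdown and control livers over the day as a whole. Of the 9 tested genes 7 rose in sh-Acsf3 and 0 fell by edgeR's quasi-likelihood test on the difference averaged over the 8 times, with Benjamini-Hochberg adjustment over all 10097 genes. Across all tested genes 14.5% passed, with 8.26% higher and 6.21% lower, and the median log2 difference was -0.0085, or 0.0456 with library size only. The rises were in both beta-thymosin genes, Marcks, both annexin genes, Tuba1a and Tuba1b. Actb and Tuba1c did not pass. All 9 genes also pass the count filter from the libraries of either treatment taken alone. For the listed pathway genes and cell markers named further on, this was not computed. In bulk liver RNA, more cells of a type and more RNA per cell cannot be told apart.

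**Figure D1:**
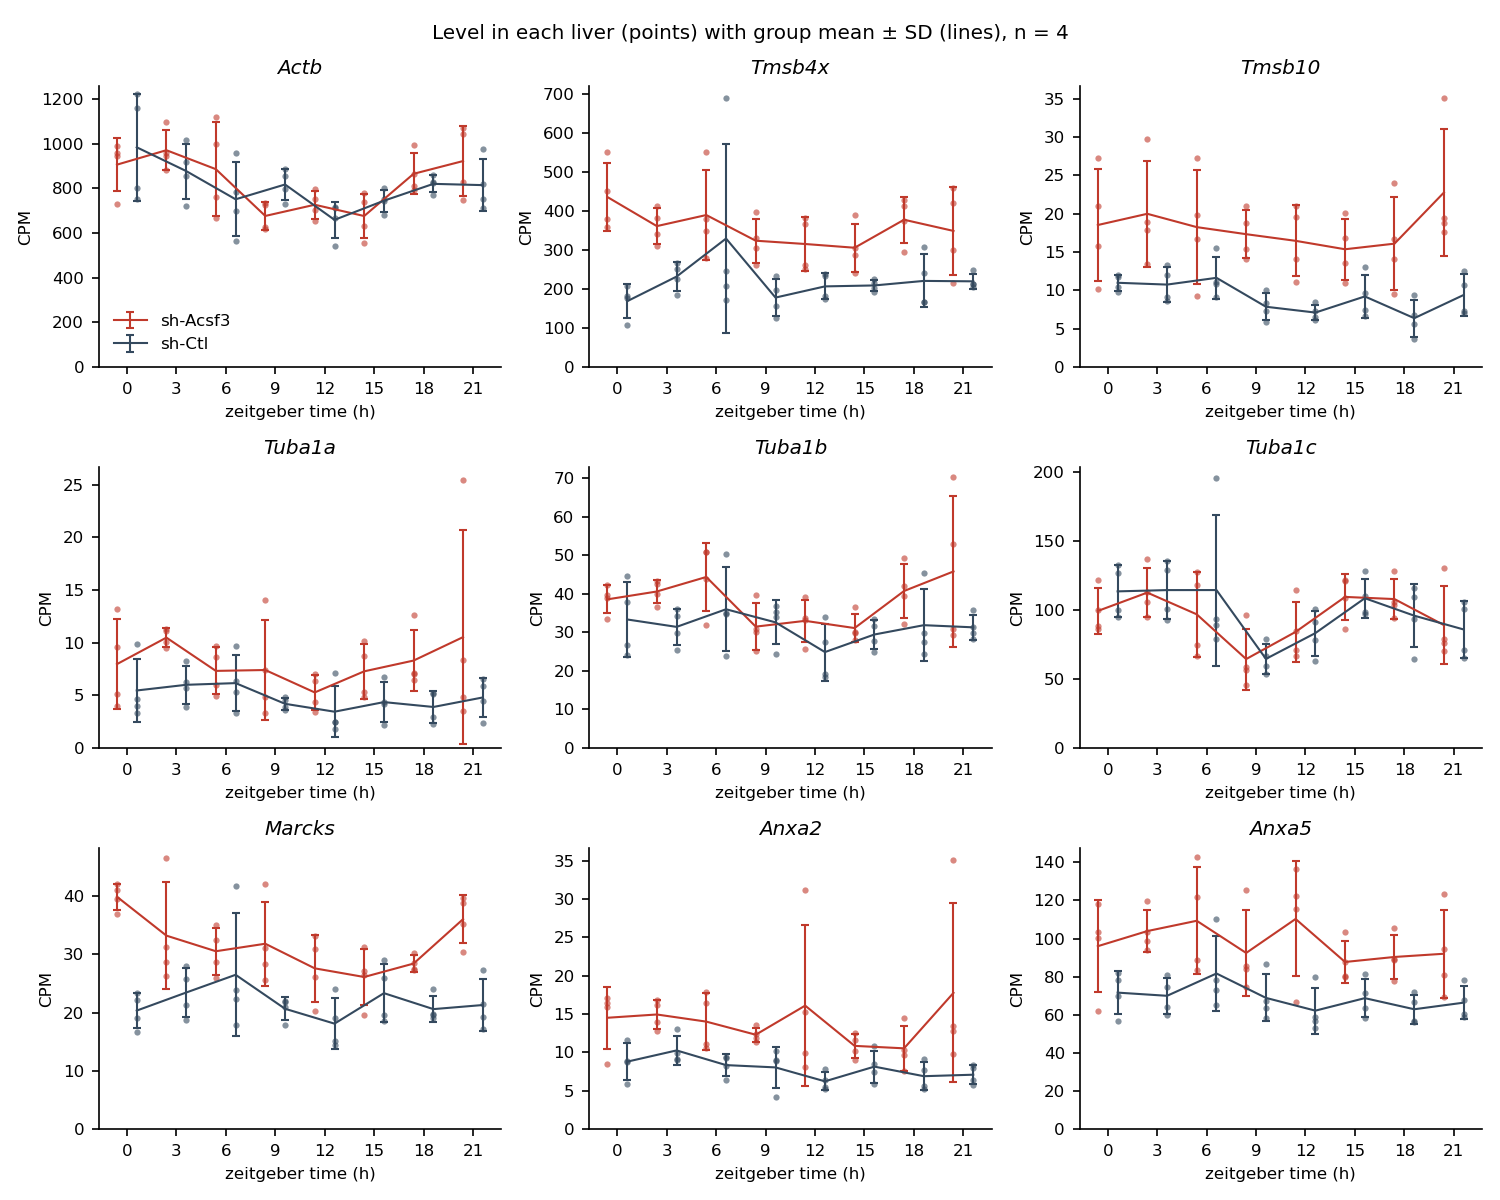
Level (CPM, linear axis) of each of the 9 tested genes in every library (points) by zeitgeber time in hours, with lines through the group means and bars of 1 SD (n = 4), sh-Acsf3 in red and sh-Ctl in dark blue. The red and blue lines of Tmsb4x, Tmsb10, Marcks and Anxa2 stay apart over the day, while those of Actb and Tuba1c cross.

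Actb, which encodes the beta-actin of nonmuscle cells, had the highest level of the 10 genes. GENCODE M21 (GRCm38) places Actb (ENSMUSG00000029580) on chromosome 5 from 142903115 to 142906754, minus strand. It ran from 557 to 1118 CPM with a median of 794 in sh-Acsf3, against 541 to 1221 CPM with a median of 789.6 in sh-Ctl. The ranges of the treatments cover each other almost entirely. Its mean was 828 ± 121 CPM in sh-Acsf3 and 808 ± 127 CPM in sh-Ctl (SD within times, n = 32 each). The log2 difference of 0.03 ± 0.05 (SE) had a 95% interval of -0.07 to 0.14 (edgeR adjusted p = 0.78), which bounds the change at 0.9503-fold to 1.099-fold. At none of the 8 times did all 4 sh-Acsf3 libraries lie above all 4 sh-Ctl libraries.

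Actg1 encodes gamma-actin, the other cytoplasmic actin, and the annotation places Actg1 (ENSMUSG00000062825) on chromosome 11 from 120345690 to 120348542, minus strand. It had 28 UMIs in sh-Acsf3, with 0 in 17 of 32 libraries, and 19 UMIs in sh-Ctl, with 0 in 20 of 32 libraries. No difference is detectable at this depth, and its ratio to Actb was not tested. In the last 500 bases of its transcript no stretch of 50 bases is shared with another annotated gene. Actb had 159002 UMIs in the same libraries, and gamma-actin is usually an abundant protein of nonmuscle cells, so the count is not to be taken as the level of the gene. The cause of the low count was not tested. The related muscle actin gene Acta2, a marker of smooth muscle and activated stellate cells, averaged 6.35 ± 7.84 CPM in sh-Acsf3 and 3.82 ± 5.18 CPM in sh-Ctl (SD within times, n = 32 each). It differed by 0.77 ± 0.32 on the log2 scale, which missed the threshold (edgeR adjusted p = 0.102).

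Tmsb4x encodes thymosin beta-4, the main monomer-sequestering peptide of many cells. The annotation has Tmsb4x (ENSMUSG00000049775) on chromosome X from 167207093 to 167209315, minus strand. It ran from 214 to 551 CPM with a median of 363 in sh-Acsf3, against 106.4 to 689 CPM with a median of 207 in sh-Ctl. The highest sh-Ctl value comes from 1 library, ZT6 replicate 1, and the other 3 of that group lay at 172 to 246 CPM. Over the day Tmsb4x averaged 357 ± 79.6 CPM in sh-Acsf3 and 220.3 ± 93.7 CPM in sh-Ctl (SD within times, n = 32 each). The log2 difference was 0.71 ± 0.10 (SE, 95% interval 0.52 to 0.91, edgeR adjusted p = 1.38e-07). It was higher in sh-Acsf3 at 8 of 8 times, and 26 of 32 sh-Acsf3 libraries lay above all 4 sh-Ctl libraries of their time.

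Tmsb10 encodes thymosin beta-10, a relative of thymosin beta-4 with the same actin-binding core. The annotation has Tmsb10 (ENSMUSG00000079523) on chromosome 6 from 72957347 to 72958748, minus strand. It ran from 9.22 to 35.1 CPM with a median of 17.8 in sh-Acsf3, against 3.64 to 15.5 CPM with a median of 9.15 in sh-Ctl. The sh-Acsf3 median thus lies above the highest sh-Ctl library. The log2 difference of 0.92 ± 0.11 (SE, edgeR adjusted p = 5.5e-10) is the largest of the 9 estimates, with 18.1 ± 6.21 CPM in sh-Acsf3 and 9.18 ± 2.20 CPM in sh-Ctl (SD within times, n = 32 each). In 29 of 32 sh-Acsf3 libraries it stood above all sh-Ctl libraries of the same time. Of the 50-base stretches in the last 200 bases of the Tmsb10 transcript, 96.0% also occur in Gm9844, which had 5 UMIs, so reads of the pair may not be separable.

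Marcks encodes the myristoylated substrate of protein kinase C that crosslinks actin at the membrane. It lies in the annotation as Marcks (ENSMUSG00000069662) on chromosome 10 from 37133375 to 37138920, minus strand. Its level ran from 19.5 to 46.6 CPM with a median of 30.7 in sh-Acsf3, against 14.35 to 41.8 CPM with a median of 21.1 in sh-Ctl. The sh-Ctl maximum is again ZT6 replicate 1. The mean was 31.7 ± 5.40 CPM in sh-Acsf3 and 21.8 ± 5.13 CPM in sh-Ctl (SD within times, n = 32 each), a log2 difference of 0.52 ± 0.07 (SE, edgeR adjusted p = 2.51e-08). Its relative Marcksl1 averaged 16.4 ± 3.79 CPM in sh-Acsf3 and 13.8 ± 3.05 CPM in sh-Ctl, with a log2 difference of 0.24 ± 0.08 (edgeR adjusted p = 0.0261). Whether the 2 differences are unequal was not tested.

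Anxa2 and Anxa5 encode annexin A2, which links membranes to the actin cortex, and annexin A5, which binds phosphatidylserine. The annotation has Anxa2 (ENSMUSG00000032231) on chromosome 9 from 69453620 to 69491795, plus strand, where Gm16144 overlaps on the other strand. It has Anxa5 (ENSMUSG00000027712) on chromosome 3 from 36448923 to 36475894, minus strand. Anxa2 ran from 7.61 to 35.1 CPM with a median of 12.65 in sh-Acsf3, against 4.21 to 13.0 CPM with a median of 8.30 in sh-Ctl. Anxa5 ran from 61.8 to 143 CPM with a median of 94.3 in sh-Acsf3, against 53.3 to 110.4 CPM with a median of 66.9 in sh-Ctl. Both were higher in sh-Acsf3 at 8 of 8 times. Anxa2 averaged 13.9 ± 6.03 CPM in sh-Acsf3 and 7.97 ± 1.89 CPM in sh-Ctl, with a log2 difference of 0.77 ± 0.11 (SE, edgeR adjusted p = 8.71e-08). Anxa5 averaged 97.8 ± 21.5 CPM in sh-Acsf3 and 69.0 ± 12.0 CPM in sh-Ctl, with a log2 difference of 0.50 ± 0.07 (SE, edgeR adjusted p = 5.96e-08). For these means n = 32 in each treatment and the SD is that within times.

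The alpha-tubulin genes Tuba1a (ENSMUSG00000072235), Tuba1b (ENSMUSG00000023004) and Tuba1c (ENSMUSG00000043091) lie within a stretch of chromosome 15 between 98931425 and 99038110 (GRCm38) and encode nearly the same protein, the first 2 on the minus strand and Tuba1c on the plus strand. Tuba1a, best known from neurons, ran from 3.33 to 25.4 CPM with a median of 7.06 in sh-Acsf3, against 1.77 to 9.91 CPM with a median of 4.51 in sh-Ctl. Tuba1b, a broadly expressed gene, ran from 25.1 to 70.2 CPM with a median of 37.8 in sh-Acsf3, against 18.55 to 50.4 CPM with a median of 30.7 in sh-Ctl. Tuba1c ran from 45.6 to 137 CPM with a median of 95.5 in sh-Acsf3, against 53.7 to 196 CPM with a median of 95.8 in sh-Ctl. The order Tuba1c, Tuba1b, Tuba1a in level held in every library, while the ranges of the treatments overlap for each gene.

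Tuba1a averaged 8.07 ± 4.57 CPM in sh-Acsf3 and 4.80 ± 2.09 CPM in sh-Ctl, a log2 difference of 0.66 ± 0.16 (SE, edgeR adjusted p = 0.00156). Tuba1b averaged 38.2 ± 8.76 CPM in sh-Acsf3 and 31.35 ± 7.36 CPM in sh-Ctl, a log2 difference of 0.27 ± 0.08 (edgeR adjusted p = 0.00961). Tuba1c averaged 95.4 ± 21.7 CPM in sh-Acsf3 and 97.5 ± 25.8 CPM in sh-Ctl (SD within times, n = 32 each for all 3), a log2 difference of -0.03 ± 0.08 (edgeR adjusted p = 0.891). Its 95% interval of -0.20 to 0.14 covers 0. The sign turned with library size only (0.018), without sh-Ctl ZT6 replicate 1 (0.02) and without replicate 2 of every group (0.0035). The Tuba1a values rest on 730 UMIs in sh-Acsf3 and 482 UMIs in sh-Ctl, the fewest of the tested genes. The call of Tuba1b ended without replicate 3 of every group (0.22, edgeR adjusted p = 0.166). None of the 50-base stretches in the last 200 transcript bases of Tuba1a or Tuba1b occurs in another gene, and 5.3% of those of Tuba1c do. Over the last 500 bases 56.3%, 63.6% and 68.3% of the stretches of Tuba1a, Tuba1b and Tuba1c are shared, so a count that reached further upstream could mix the 3 genes. Gm49450 overlaps Tuba1a and Tuba1b on the same strand.

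**Figure D2:**
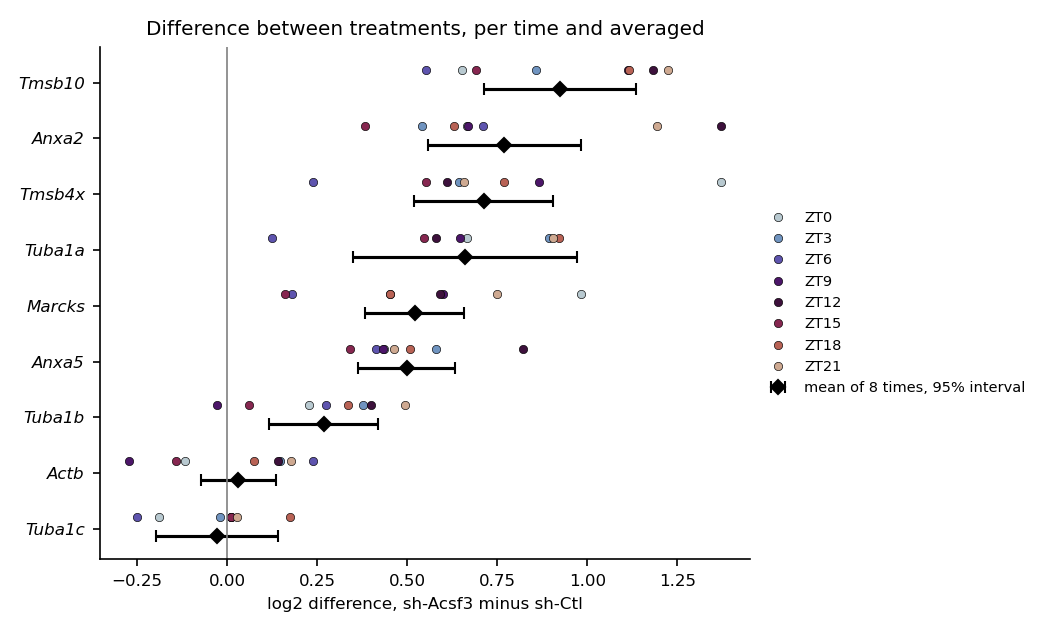
Log2 difference of sh-Acsf3 minus sh-Ctl for each of the 9 tested genes, with 1 circle per zeitgeber time and a diamond with its 95% interval for the average of the 8 times. The diamonds run from -0.03 for Tuba1c to 0.92 for Tmsb10, and for Tmsb4x, Tmsb10, Tuba1a, Marcks, Anxa2 and Anxa5 all circles lie right of 0.

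The separation by time was widest for the beta-thymosins. All 4 sh-Acsf3 libraries lay above all 4 sh-Ctl libraries at 5 times for Tmsb4x and for Tmsb10, at 4 times for Marcks and for Anxa2, at 2 times for Tuba1a and for Anxa5, and at 1 time for Tuba1b. Such a separation at 4 or more times was found for 0.773% of all tested genes. At ZT0 alone it was found for 3.21% and at ZT12 alone for 3.86%. Shares of all genes were not computed for 1 or 2 times, nor for the counts of libraries above all controls of their time. A fitted difference above 0 at all 8 times was found for 6 of the 9 genes, against 5.74% of all tested genes. For Tuba1b it held at 7 of 8 times.

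The second comparison asks whether genes of the same family moved by the same amount. The log2 ratio of 2 genes within each library was compared between treatments by a two-sided permutation test with treatment labels exchanged within times, adjusted over the 5 pairs tested. The smallest p that the 100000 resamples allow is 1e-05. The ratio of Tuba1a to Tuba1b averaged -2.26 ± 0.47 in sh-Acsf3 and -2.62 ± 0.49 in sh-Ctl (SD, n = 32 each), a difference of 0.36 ± 0.13 (SE, permutation test, adjusted p = 0.00572). The ratio of Tuba1c to Tuba1b averaged 1.29 ± 0.35 in sh-Acsf3 and 1.597 ± 0.41 in sh-Ctl, a difference of -0.30 ± 0.08 (permutation test, adjusted p = 0.000475). The ratio of Tuba1a to Tuba1c averaged -3.55 ± 0.58 in sh-Acsf3 and -4.22 ± 0.54 in sh-Ctl, a difference of 0.67 ± 0.14 (permutation test, adjusted p = 5e-05). Tuba1a therefore rose relative to both other alpha-tubulin genes, and Tuba1c fell relative to both. The ratio of Tuba1a to Tuba1c follows in each library from the other tubulin ratios, so its test is not independent of theirs. The sign was the same at 8 of 8 times for Tuba1a to Tuba1c and at 7 of 8 times for the other tubulin pairs. The call for Tuba1a to Tuba1b ended without replicate 1 (0.27, permutation test, adjusted p = 0.0898).

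Between the beta-thymosins the ratio of Tmsb10 to Tmsb4x averaged -4.28 ± 0.50 in sh-Acsf3 and -4.47 ± 0.495 in sh-Ctl. The difference of 0.18 ± 0.12 did not pass (permutation test, adjusted p = 0.137). Between the annexins the ratio of Anxa5 to Anxa2 averaged 2.81 ± 0.47 in sh-Acsf3 and 3.04 ± 0.40 in sh-Ctl. Its difference of -0.22 ± 0.11 did not pass either (permutation test, adjusted p = 0.0583). This last value lies close to the threshold, and it passed with a prior count of 0.5 (-0.26, adjusted p = 0.0361) and without replicate 3 (-0.30, adjusted p = 0.0276). The ratio of the beta-thymosins passed without replicate 2 (0.298, adjusted p = 0.0413).

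**Figure D3:**
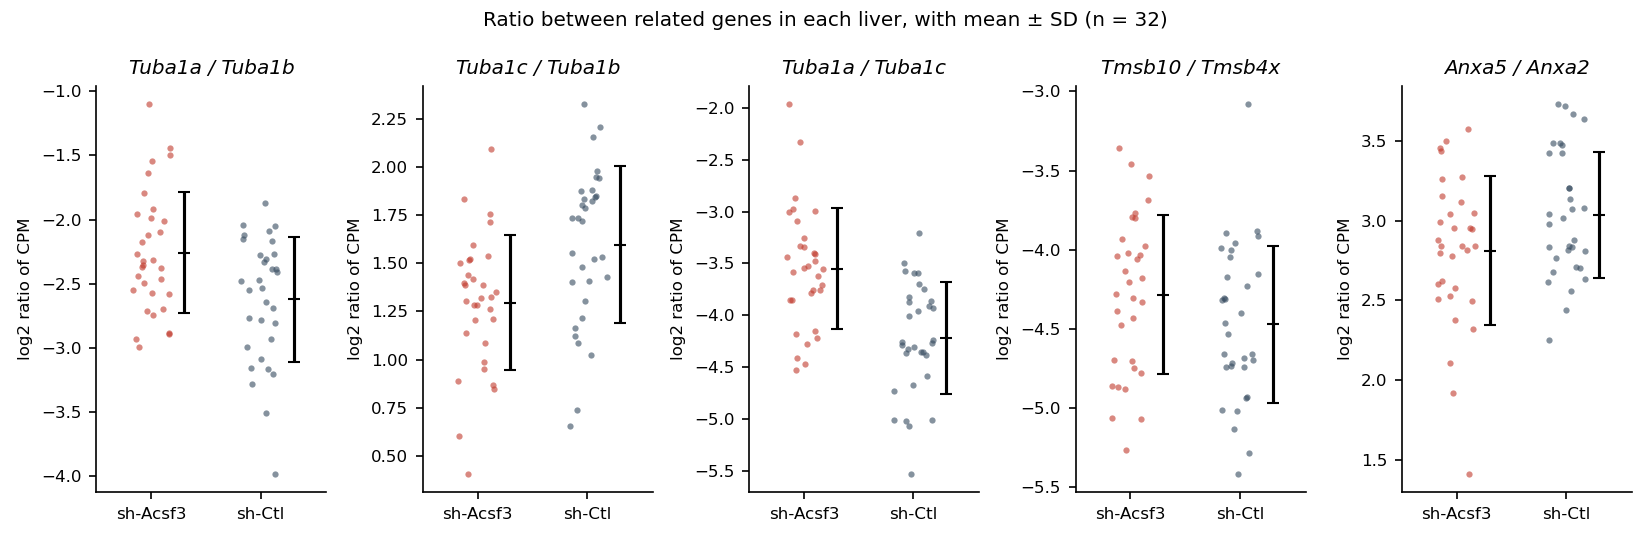
Log2 ratio of the CPM of 2 related genes in each library (points), for sh-Acsf3 on the left and sh-Ctl on the right of each panel, with the mean and SD beside them (n = 32 each). The 3 tubulin ratios differ between treatments by 0.36, -0.30 and 0.67, and the points of the treatments overlap in every panel.

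The third comparison asks at which times the differences were found and whether they changed over the day. At ZT0 Tmsb4x and Marcks rose, where 0.465% of all tested genes did. Tmsb4x had 379, 551, 359 and 451 CPM in sh-Acsf3, against 183, 106.4, 178 and 207 CPM in sh-Ctl. Marcks had 42.1, 41.0, 39.5 and 36.9 CPM in sh-Acsf3, against 23.4, 19.1, 22.15 and 16.7 CPM in sh-Ctl. For both genes the groups do not overlap, as for 3.21% of all tested genes at this time. The log2 difference at ZT0 was 1.37 ± 0.28 for Tmsb4x (SE, n = 4 each, edgeR adjusted p = 0.00821) and 0.98 ± 0.19 for Marcks (edgeR adjusted p = 0.00548).

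At ZT12 Tmsb10, Anxa2 and Anxa5 rose, where 1.16% of all tested genes did. Tmsb10 had 19.6, 11.2, 14.1 and 21.0 CPM in sh-Acsf3, against 7.29, 6.13, 6.59 and 8.45 CPM in sh-Ctl. Anxa2 had 31.1, 8.12, 15.2 and 9.91 CPM in sh-Acsf3, against 6.40, 5.21, 7.84 and 5.45 CPM in sh-Ctl. For these 2 genes all sh-Acsf3 libraries lie above all sh-Ctl libraries, as for 3.86% of all tested genes at this time, though for Anxa2 replicate 1 stands apart and replicate 2 only just clears sh-Ctl. Anxa5 had 136.5, 67.0, 122 and 115 CPM in sh-Acsf3, against 56.5, 53.3, 59.0 and 79.9 CPM in sh-Ctl, so sh-Acsf3 replicate 2 falls among the controls. The log2 differences at ZT12 were 1.18 ± 0.30 for Tmsb10, 1.37 ± 0.30 for Anxa2 and 0.82 ± 0.19 for Anxa5 (SE, n = 4 each, edgeR adjusted p = 0.0236, 0.00486 and 0.00877). Without sh-Acsf3 ZT12 replicate 1, which also had the highest sum of stellate cell markers of all libraries (760.7 CPM), none of the 3 passed, with 1.07, 0.80 and 0.70 (edgeR adjusted p = 0.191, 0.36 and 0.138). The Tmsb10 call also ended without sh-Acsf3 replicate 4 or sh-Ctl replicate 1, 2 or 3 of ZT12 (edgeR adjusted p = 0.0744, 0.0589, 0.0728 and 0.0693), and the Anxa5 call without sh-Acsf3 replicate 3 (0.0566). Without the libraries high in Saa1 both were lost (edgeR adjusted p = 0.0708 for Tmsb10 and 0.0515 for Anxa5), and limma-voom did not call Tmsb10 (adjusted p = 0.0624).

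None of the 9 genes passed edgeR's test at ZT3, ZT6, ZT9, ZT15, ZT18 or ZT21, where 0.0594%, 0.188%, 0.307%, 0.0198%, 0.139% and 0.277% of all tested genes rose. At an unadjusted p under 0.05 there were 5, 3, 5, 2, 6 and 6 of the 9 at these times. The shares above are for adjusted calls, and the share of all genes at the unadjusted cut was not computed. DESeq2 called 2 of the 9 at ZT21 and none at the other 5 times, and limma-voom none at any of the 6. Tmsb10 differed by 1.22 ± 0.31 and Anxa2 by 1.19 ± 0.32 at ZT21 (log2, SE, n = 4 each). The calls at ZT0 also depend on single libraries. Without sh-Acsf3 ZT0 replicate 2 the Tmsb4x difference was 1.23 (edgeR adjusted p = 0.0786), and without sh-Ctl ZT0 replicate 2 it was 1.20 (edgeR adjusted p = 0.0662). The Marcks call ended without replicate 2 or 3 of every group (0.94 and 1.03, edgeR adjusted p = 0.163 and 0.056). The Tmsb4x call ended without replicate 2, 3 or 4 of every group (1.07, 1.48 and 1.47, edgeR adjusted p = 0.296, 0.056 and 0.0507).

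The test of whether the difference changed over the 8 times, an edgeR interaction test with 7 degrees of freedom, called 0 of 10097 genes (0%) and 0 of the 9. At an unadjusted p under 0.05 there were 306 genes, none of them among the 9, of which Marcks came nearest (unadjusted p = 0.0588). Its difference was 0.98 at ZT0 and 0.16 at ZT15. DESeq2 and limma-voom also called none of the 9, while with no gene filter the interaction passed for Tmsb4x (edgeR adjusted p = 0.00567), whose difference was 1.37 at ZT0 and 0.24 at ZT6. The main edgeR interaction test of Tmsb4x had an unadjusted p of 0.217, and no other setting called it. Its ZT6 difference includes sh-Ctl replicate 1 at 689 CPM, against 172 to 246 CPM in the others of that group. The calls at ZT0 and ZT12 do not show that the differences at those times exceed those at other times.

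The fourth comparison asks which of these transcripts had a daily rhythm. In sh-Acsf3, where 19.6% of all tested genes passed edgeR's test of a 24 h cosine, 2 of the 9 genes passed, Actb and Marcks. In sh-Ctl, where 19.4% passed, it was Actb alone. Both counts lie near the shares of all tested genes, so rhythms were not more frequent among the 9 than elsewhere. Actb averaged 905 ± 118, 970.0 ± 90.5, 885 ± 209, 676 ± 62.8, 726 ± 61.9, 676 ± 99.9, 864.5 ± 91.0 and 921.5 ± 157.5 CPM from ZT0 to ZT21 in sh-Acsf3 (SD of 4 libraries). In sh-Ctl it averaged 983 ± 240.1, 877 ± 123, 750.5 ± 166, 817 ± 68.2, 658.5 ± 81.4, 744 ± 49.2, 819.6 ± 37.5 and 814 ± 117 CPM. Both treatments were high around ZT0 to ZT3, and the lowest mean stood at ZT15 in sh-Acsf3, with ZT9 almost equal, and at ZT12 in sh-Ctl.

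Amplitudes, peaks and folds come from a least-squares fit to log2 CPM, and the p-values from edgeR. The Actb amplitude was 0.25 ± 0.05 (log2, SE) with a fitted peak at 0.29 ± 0.80 h (SE) in sh-Acsf3 (edgeR adjusted p = 0.00106). In sh-Ctl it was 0.18 ± 0.06 with a peak at 0.09 ± 1.2 h (edgeR adjusted p = 0.0235). The peak to trough fold was 1.41 in sh-Acsf3 and 1.28 in sh-Ctl. Marcks had an amplitude of 0.23 ± 0.06 with a peak at 0.77 ± 1 h in sh-Acsf3 (edgeR adjusted p = 0.0287), and 0.09 ± 0.07 in sh-Ctl (edgeR adjusted p = 0.451). A rhythm passing in one treatment alone is no difference between them. The edgeR test of that difference called 0 of 10097 genes (0%) and 0 of the 9, with 431 genes at an unadjusted p under 0.05 and none of the 9 among them (Marcks unadjusted p = 0.185). DESeq2 and limma-voom also called none of the 9. The call of Marcks ended with library size only (edgeR adjusted p = 0.164), with no gene filter (0.0605) and without the libraries with pancreas RNA (0.196). It also ended without replicate 1, 2 or 3 of every group (0.0736, 0.162 and 0.0836). That of Actb in sh-Ctl ended without replicate 1 or 3 (edgeR adjusted p = 0.215 and 0.169) and without the libraries with pancreas RNA (0.0513).

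Tuba1c did not pass the test of a 24 h cosine in either treatment. Its mean was lowest at ZT9 in both treatments, at 64.4 ± 22.1 CPM in sh-Acsf3 and 64.6 ± 10.9 CPM in sh-Ctl (SD, n = 4 each). By ZT15 it stood at 109 ± 16.8 CPM in sh-Acsf3 and 108.5 ± 14.25 CPM in sh-Ctl. Terms of 12 h, tested in edgeR after these values had been seen, gave unadjusted p of 0.00519 in sh-Acsf3 and 0.00443 in sh-Ctl. Neither passed after adjustment (edgeR adjusted p = 0.194 and 0.203), against 0.872% and 0.891% of all tested genes that did. An edgeR test for any difference among the 8 times, also added later, passed for Actb in sh-Acsf3 (adjusted p = 0.0144, where 13.1% of all genes passed). In sh-Ctl it passed for none of the 9 (12.6% of all genes). There 3 of the 9 had an unadjusted p under 0.05, and the share of all genes at that cut was not computed.

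To see which transcripts varied with these genes from liver to liver, log2 CPM was corrected for the 16 group means and correlated over the 64 libraries. These correlations share library, depth and scaling and are given as a description. They include sh-Ctl ZT6 replicate 1, which stood apart for Tmsb4x (689.1 CPM) and Tuba1c (195.8 CPM). Its macrophage markers summed to 476.4 CPM, and correlations without it were not computed. Tmsb4x went most closely with Ctss (r = 0.733), a cathepsin gene of macrophages, and with the complement genes C1qb (0.729) and C1qc (0.706), which are also macrophage markers. Tuba1c went with the beta-tubulin genes Tubb4b (0.708) and Tubb2a (0.692) and with Fasn (0.675), the fatty acid synthase gene. Tuba1b went with the endothelial gene Eng (0.645) and with Gstm3 (0.644) and Gstm1 (0.605), both of glutathione transferases, and Tuba1a with Prkx (0.639), Sparc (0.629) and Rps12 (0.626). Anxa5 and Actb both had Myl12a, a myosin light chain gene, in first place, with 0.688 and 0.684. Anxa5 was followed by Cdc42 (0.645) and Sparc (0.641), and Actb by Pnpla7 (0.659) and Taldo1 (0.659). Tmsb10 went with Plvap (0.634), a gene of fenestrated endothelium, then Aldoa (0.612) and Got2 (0.609). Marcks went with Samd4 (0.695), Slc9a9 (0.611) and Sqstm1 (0.572), and Anxa2 with Otud7b (0.604), Mrpl45 (0.579) and Ecscr (0.563). Among the 9 genes themselves the 36 pairs ran from 0.084, for Actb with Anxa2, to 0.652, for Actb with Tuba1c, with a median of 0.387.

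Other genes of the same pathways were examined in lists. Of 37 tested genes of actin-binding proteins 15 rose and 1 fell by the averaged edgeR test (8.26% and 6.21% of all tested genes), with a median log2 difference of 0.16, against -0.0085 over all genes. Gsn, which encodes the filament-severing protein gelsolin, averaged 30.3 ± 17.1 CPM in sh-Acsf3 and 15.2 ± 4.28 CPM in sh-Ctl (SD within times, n = 32 each), a log2 difference of 0.96 ± 0.13 (edgeR adjusted p = 3.13e-07). Coro1a, a coronin of blood cells, rose by 0.88 ± 0.14, Flna, the crosslinker filamin A, by 0.73 ± 0.11, and Cotl1, an F-actin-binding protein gene, by 0.62 ± 0.10 (log2, SE). The 1 gene that fell was Rdx, the radixin gene, at -0.14 ± 0.05 (edgeR adjusted p = 0.0399), named after its value was seen. With the general monomer-binding genes Pfn1, of profilin, and Cfl1, of cofilin, the differences were 0.098 ± 0.06 and 0.015 ± 0.04, and neither passed.

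Of 15 tested genes of the serum response factor, its cofactors and their targets 9 rose and 0 fell, with a median of 0.44, where 8.26% of all tested genes rose. Ccn2, a matricellular growth factor gene, averaged 3.57 ± 1.75 CPM in sh-Acsf3 and 1.61 ± 0.88 CPM in sh-Ctl (SD within times, n = 32 each), a log2 difference of 1.08 ± 0.18 (edgeR adjusted p = 6.31e-06). Tagln2, of transgelin 2, rose by 0.72 ± 0.10 and Tpm1, of tropomyosin 1, by 0.44 ± 0.07 (log2, SE). Flna is also on this list, and the actin lists share further genes. The factor's own gene Srf differed by 0.06 ± 0.15 and did not pass (edgeR adjusted p = 0.851).

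Of 16 other tested tubulin and microtubule genes 2 rose and 0 fell, with a median of 0.04. This share lies near the 8.26% of all tested genes that rose. They were Tuba8, an alpha-tubulin gene, with 5.22 ± 2.42 CPM in sh-Acsf3 and 2.61 ± 1.46 CPM in sh-Ctl (SD within times, n = 32 each) and a log2 difference of 1.07 ± 0.16, and Tubb6, a beta-tubulin gene, at 0.76 ± 0.15 (edgeR adjusted p = 7.98e-07 and 0.00015). Tuba4a, the most abundant of these tubulins, had 127 ± 21.2 CPM in sh-Acsf3 and 143 ± 22.95 CPM in sh-Ctl, and it differed by -0.16 ± 0.06, just short of the threshold (edgeR adjusted p = 0.0524). The microtubule protein gene Map4 differed by 0.16 ± 0.06 and did not pass.

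Of 10 other tested annexin and S100 genes 4 rose and 0 fell, with a median of 0.18, where 8.26% of all tested genes rose and 6.21% fell. S100a11, a calcium-binding protein gene whose product binds annexins, averaged 13.9 ± 5.36 CPM in sh-Acsf3 and 6.60 ± 1.96 CPM in sh-Ctl (SD within times, n = 32 each), a log2 difference of 1.03 ± 0.13 (edgeR adjusted p = 9.03e-09). S100a6 rose by 0.73 ± 0.14, Anxa1 by 0.61 ± 0.17 and Anxa6 by 0.21 ± 0.06 (log2, SE). S100a10, which encodes the partner of annexin A2 in a heterotetramer, had 139 CPM in sh-Acsf3 and 126 CPM in sh-Ctl, and it differed by 0.15 ± 0.08, which missed the threshold (edgeR adjusted p = 0.185).

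**Figure D4:**
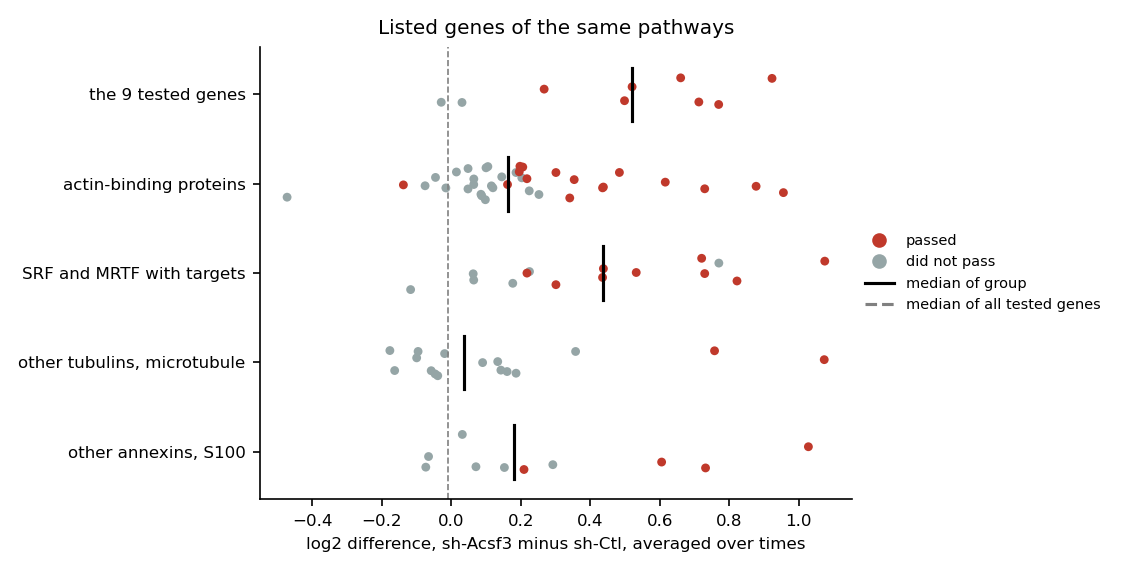
Averaged log2 difference of sh-Acsf3 minus sh-Ctl for the 9 tested genes and for the genes of 4 pathway lists, with genes that passed in red and the others in grey, and vertical positions spread at random within a line. Black lines mark the median of each group (0.44 for the serum response factor list, 0.04 for the other tubulins) and the dashed line that of all tested genes (-0.0085).

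Markers of other liver cells were examined in the same contrast, and the share that rose differed between cell types. Over all tested genes 8.26% rose and 6.21% fell. Counts here are of tested markers, and sums also take in listed markers too low to test. Among 11 markers of stellate cells and fibroblasts 9 rose and 0 fell. The summed level of the 12 listed ran from 355 to 760.7 CPM in sh-Acsf3, against 171 to 349.5 CPM in sh-Ctl. Of 11 Kupffer cell and macrophage markers 6 rose, with sums of 149.9 to 480.1 CPM in sh-Acsf3 and 120.6 to 476 CPM in sh-Ctl. Of 5 monocyte and neutrophil markers 3 rose (sums of 8 listed, 33.6 to 72.9 CPM in sh-Acsf3, 18.65 to 90.1 CPM in sh-Ctl). Of 8 lymphocyte markers 7 rose (sums of 14 listed, 28.8 to 254 CPM in sh-Acsf3, 13.9 to 54.7 CPM in sh-Ctl). Several of their sh-Ctl means were low, such as 0.427 CPM for Cd3g and 0.741 CPM for Nkg7. Such genes may have passed the count filter only through sh-Acsf3, so the lymphocyte count may partly follow from the filter. Of 12 sinusoidal endothelial markers 2 rose (204.5 to 332 CPM in sh-Acsf3, 153.5 to 328 CPM in sh-Ctl). Of 3 cholangiocyte markers 2 rose (sums of 6 listed, 58.7 to 139 CPM in sh-Acsf3, 29.5 to 122 CPM in sh-Ctl). No listed marker of any type was at 0 in all libraries, so none of these cell types can be called missing. The part of these cells in the rise of the thymosin, annexin, Marcks and tubulin genes was not tested.

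Of 9 tested cell cycle genes 7 rose, where 8.26% of all tested genes did. Sums over the 12 listed ran from 18.9 to 105.4 CPM in sh-Acsf3 and from 10.2 to 45.4 CPM in sh-Ctl. Several were low in sh-Ctl, such as Ccnb1 with 0.349 CPM, against 1.46 CPM in sh-Acsf3. Whether they pass the count filter from sh-Ctl alone was not computed, so this count may partly follow from the filter. Of 10 hepatocyte markers 3 fell and 0 rose, with sums of 104300 to 143800 CPM in sh-Acsf3 and 70130 to 136400 CPM in sh-Ctl. None of 12 pancreas genes and none of 5 red cell genes passed edgeR's test, with 2 and 0 at an unadjusted p under 0.05, and the 5 platelet markers were too low to test. Pancreas sums reached 8817 CPM in sh-Acsf3 and 818 CPM in sh-Ctl. Without the 8 libraries with pancreas RNA, and separately without the 4 high in Saa1, 7 of the 9 genes still passed, both choices being made after the data had been seen.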

How the data were processed

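The values are raw UMI counts per gene and library, deposited by the authors without normalization. Per the submitters' processing notes, reads were aligned with STAR to GRCm38/mm10. Versions, the annotation and the settings for merging UMIs are not given in the sources used here. All 64 columns were matched to samples by treatment, time and replicate number. Within groups, all 96 replicate pairs differed beyond counting error (chi-square 2.41 to 37.8 per degree of freedom), and none was treated as a duplicate.

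The analysis used edgeR 4.0.16 in R 4.3.3. The filter filterByExpr (minimum count 10, minimum total 15) left 10097 genes, libraries were scaled by TMM, and 1 mean for each of the 16 groups was fitted by robust quasi-likelihood. Rhythms were tested with a mean, cosine and sine of 24 h per treatment. Amplitudes, peaks and their SEs are from least squares on log2 CPM with a prior count of 2. Adjustment was by Benjamini-Hochberg across all tested genes, and a result passed below 0.05. Ratios used log2 CPM with a prior count of 2, in 100000 resamples over 5 pairs; the planned ratio of Actb to Actg1 was not run. The averaged test, the ZT12 test, the sh-Ctl rhythm test, the rhythm difference test and the ratio test were checked on simulated data. The other tests, the interaction test among them, were not.

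Alternatives were RLE, library size only, other filters, DESeq2 1.42.0, limma-voom (limma 3.58.1), added 12 h terms, a prior count of 0.5, the replicate block, and leaving out each replicate or library. Differences of single genes at single times were recomputed where they had passed, and the others enter as counts. The genes and lists were chosen with earlier results of these data known. Named genes are the 10 genes, Acsf3, up to 4 tested members of each pathway list with the smallest p, and the 3 genes most correlated with each of the 9. Others named (Rdx, Pfn1, Cfl1, Srf, S100a10 and the markers) were chosen after their values were seen. Positions and transcripts came from GENCODE M21, promoters from RefSeq (GRCm38.p6). Intervals are edgeR estimates and cover the spread between these libraries.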

Additional observations from a re-analysis of the deposited data

Results flagged for a closer look

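In each group of 4 libraries the highest and lowest value of a gene were compared with the rest by Dixon's ratio at its 95% critical value. Of 144 sets 9 exceeded it, where chance alone gives about 1 in 20, or 7.2.

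In sh-Acsf3, 5 sets held such a library. At ZT21 replicate 2, the shallowest library, Tmsb10 stood at 35.1 CPM against 17.66 to 19.5 CPM in the others, Tuba1c at 130.7 against 70.3 to 79.2 CPM, and Anxa2 at 35.1 against 9.74 to 13.4 CPM. The Tmsb10 and Anxa2 values rest on 29 UMIs each. At ZT18 replicate 3 Tuba1a had 12.6 CPM against 6.495 to 7.09 CPM, from 11 UMIs. At ZT0 replicate 3 Anxa2 was low, at 8.55 CPM against 15.9 to 17.1 CPM.

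In sh-Ctl, 4 sets held one. At ZT6 replicate 1 Tmsb4x had 689.1 CPM against 172 to 246 CPM in the others, and Tuba1c had 195.8 CPM against 78.95 to 93.4 CPM. This library was the highest of its group for 8 of the 9 genes, and its macrophage markers summed to 476 CPM against 183 to 207 CPM in the other 3. Its part in these values was not tested. Tuba1a had 7.086 CPM at ZT12 replicate 4 against 1.77 to 2.51 CPM, and Marcks 23.97 CPM at ZT18 replicate 4 against 19.1 to 19.8 CPM.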

How the results depend on the processing

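All 7 averaged calls held in each alternative, single libraries left out included, except Tuba1b without replicate 3 (0.2242, adjusted p = 0.166; range 0.2242 to 0.3191 without a replicate or library). Tuba1c, not called, turned to 0.0178 with library size only and ran from -0.0647 to 0.0236 with replicates or libraries left out. Counts of the 9 genes called moved as follows, with small changes between counts above 0 not listed one by one. At ZT12 the count ran from 1 to 4 over the settings other than leaving out a replicate or a single library. With library size only there was 1 at ZT9 and 1 with a rhythm in sh-Acsf3. With no gene filter there were 2 at ZT3, 2 at ZT9, 2 at ZT18 and 4 at ZT21, 1 for the interaction (Tmsb4x) and 1 with a rhythm in sh-Acsf3. At ZT21 a mean CPM of at least 5 gave 1 and DESeq2 gave 2. The share of all genes called under these settings was not computed. Without the libraries high in Saa1, ZT12 gave 1, and without those with pancreas RNA the rhythm counts were 1 in sh-Acsf3 and 0 in sh-Ctl. With replicates or libraries left out, ZT0 gave 0 to 2, ZT12 0 to 4, ZT18 0 to 1, rhythm in sh-Acsf3 1 to 3 and rhythm in sh-Ctl 0 to 2. The ratio of Anxa5 to Anxa2 passed at -0.2564 with a prior count of 0.5 and ran from -0.3028 to -0.1535 with a replicate left out. That of Tmsb10 to Tmsb4x ran from 0.0369 to 0.2981, and that of Tuba1a to Tuba1b from 0.2667 to 0.428. The cause of these shifts was not tested.

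Deviations from the group means were correlated between same-numbered libraries of the treatments at each time. The median r was 0.024 over 32 comparisons, with 7 above 0.1, against -0.016 for other numbers. Because the deviations are from means of 4 libraries, these values are not independent. A batch carried by the replicate number within a treatment was not tested. With the replicate block, rhythm in sh-Ctl gave 2 genes, Actb and Tmsb10 (adjusted p = 0.0495), and the ratio of Anxa5 to Anxa2 stayed at -0.2249 with adjusted p = 0.031. The block changed no other call, leaving aside genes it may have added at ZT12, where a small change of the count was not listed. Depth limits Tuba1a, held by 5 to 85 UMIs per library.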
